A study of Bos taurus with 24 samples.

Results

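The bovine miRNAs described here run in name from miR-2286 to miR-2490 and from miR-2881 to miR-2904. They were taken as every listed miRNA named bta-miR- with a number in either range, whatever its letter, copy or arm suffix. They made up 138 of the 796 miRNAs in the deposited tables, 131 of them in the first range and 7 in the second, and they stood for 116 hairpins. Small RNA was sequenced from mammary gland biopsies of lactating cows of 2 breeds, Holstein (HOLS) and Montbéliarde (MONT), all of them fed freely before a feed restriction. Each cow gave a library before the restriction (CONT, day 0) and a library at its end (REST, after 6 days). The labels set the allowance at 60% of the net energy of lactation, and the paper's text gives another percentage. Counts were used for 5 HOLS cows (10 libraries) and 6 MONT cows (12 libraries), and a further HOLS cow in the labels was not analysed here.

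miRNAs are short RNAs that are cut from a hairpin precursor, which can leave a product from its 5′ arm (5p), its 3′ arm (3p) or both. Bound to an Argonaute protein they pair, mainly through the seed near their 5′ end, with sites in mRNAs and lower the output of these mRNAs. New miRNAs are numbered by miRBase in the order of their submission, and runs of consecutive numbers with the bovine prefix mark large sets submitted from cattle. Few of these have an assigned function, so their genomic neighbours are given in place of a role.

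Library totals ranged from 6087865 to 18913916 miRNA counts. Every list of marker miRNAs for epithelium, smooth muscle and stroma, endothelium, leukocytes and red blood cells was detected in full in all 22 libraries. The 6 epithelial markers (miR-141, the miR-200 family, miR-429 and miR-205) held 1.27 to 4.87% of the counts, and the 5 smooth muscle and stroma markers 16.0 to 42.8%. Each list was summed, so its share follows its most abundant miRNAs, and values of single markers are not given. In biopsies, fewer cells of a type and less RNA per cell cannot be told apart. MONT cow 9615 stood apart. Deviations of its CONT and REST libraries from their period means correlated with r of -0.33 across the 349 miRNAs tested in MONT, against 0.07 to 0.76 in the other MONT cows and 0.25 to 0.54 in HOLS.

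The cattle-numbered miRNAs were many in name and few in counts. Each of the 138 had at least 1 count somewhere, as did all 796 miRNAs listed. Together they gave 39003 counts over the 22 libraries, between 0.00744 and 0.0251% of a library with a median of 0.0158%. The 113 miRNAs named miR-2284 or miR-2285, another large bovine set with neighbouring numbers, held 0.0455 to 0.0835% of a library. No library gave more than 9 counts of 110 of the 138, the maximum was 10 to 99 for 23, and only 5 reached 100 or more.

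Detection was patchy for most of them. A count was present in all 22 libraries for 20 members (14.5%), against 25.7% of the miR-2284 and miR-2285 miRNAs and 63.7% of the other 545 miRNAs. At least 10 counts in all 22 libraries were reached by 5 members. A single library held all the counts of 23 members, while 58 were present in 2 to 10 libraries and 37 in 11 to 21. A library held from 45 to 78 members, the fewest in the REST library of cow 9615 and the most in the REST library of MONT cow 2614, which was also the deepest. With every library scaled to the smallest total of 6087865 counts, the expected number ranged from 42.9 to 55.6 in HOLS and from 39.9 to 56.7 in MONT.

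**Figure D1:**
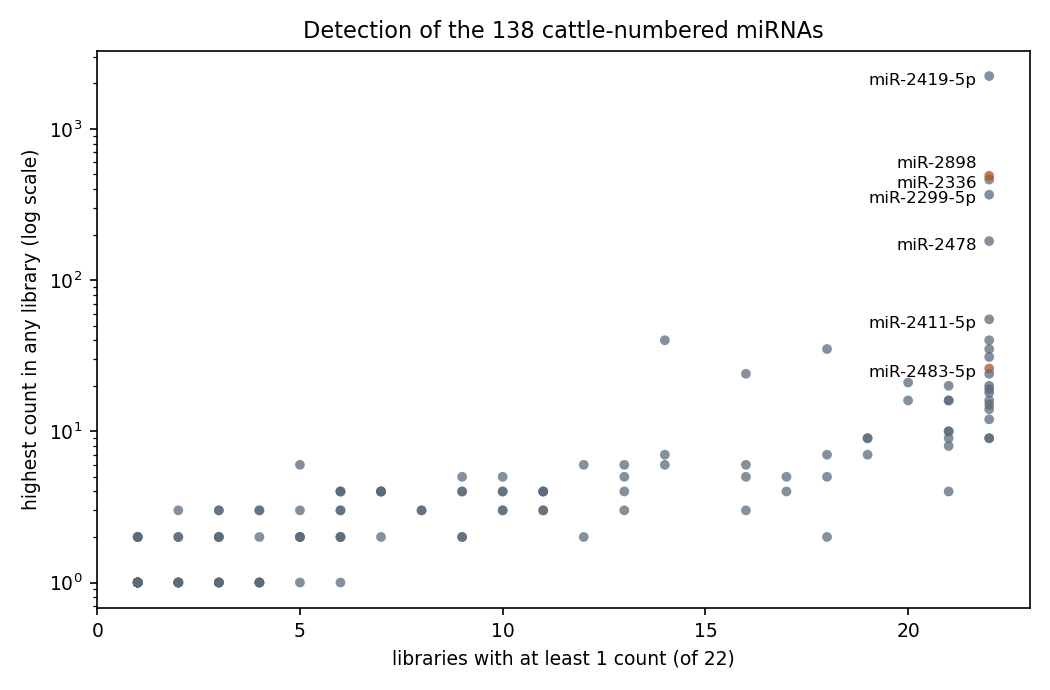
Each point is 1 of the 138 cattle-numbered miRNAs, placed by the number of libraries with at least 1 count (of 22, horizontal axis) and by its highest count in any library (vertical axis, log scale). The 5 miRNAs with 100 or more counts sit apart at the upper right, and miR-2898 and miR-2483-5p are in orange.

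By breed, 122 members (88.4%) were detected in HOLS and 123 (89.1%) in MONT, against 94.7% and 95.4% of all 796 miRNAs. Counts were present only in HOLS libraries for 15 members and only in MONT libraries for 16. Over all 796 miRNAs, 37 had no count in MONT and 42 had none in HOLS. None of these breed-limited members had more than 5 counts in all, so a difference in detection between the breeds could not be read from them at this depth. The 7 members of the second range were miR-2885, miR-2887, miR-2889, miR-2890, miR-2898, miR-2903 and miR-2904. miR-2898 held 4155 of their 4297 counts, and each of the other 6 had at most 9 counts in any library.

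Counts were concentrated in a handful of members. miR-2419-5p alone gave 15606 counts, 40.0% of those of the set, and ranked 138th of the 796 miRNAs by counts. miR-2336 followed with 6444 counts, miR-2299-5p with 4857, miR-2898 with 4155 and miR-2478 with 1779. These 5 held from 73.1 to 88.8% of the members' counts in each library. miR-2411-5p, miR-2332, miR-2484, miR-2483-5p and miR-2339 came next, with 671 to 254 counts in all.

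Most hairpins overlapped genes in the RefSeq annotation of ARS-UCD2.0. This is a later assembly than that of the study, so only names and neighbours were taken from it, without regard to strand. Of the 116 hairpins, 113 matched a RefSeq miRNA gene, and 92 of the 115 genes matched (80.0%) overlapped a protein-coding gene, against 64.2% of the 917 other bovine miRNA genes. Of the 5 most abundant, only miR-2299 overlapped such a gene, B3GLCT, which encodes a glucosyltransferase that modifies fucose on secreted proteins. The miR-2419 gene was placed between NOD1, an intracellular receptor for bacterial peptidoglycan, and ZNRF2, a ubiquitin ligase. The neighbours of miR-2336 were VPS53, a subunit of a vesicle tethering complex, and RFLNB. miR-2478 stood between NKAIN2 and TRDN, the triadin gene of muscle. The miR-2898 gene had no overlapping gene and stood next to MIR2404-2, a copy of another member.

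Below the first 5, most overlapped a protein-coding gene, again without regard to strand. miR-2483 overlapped TENM1, which encodes a teneurin, a transmembrane protein of cell adhesion. miR-2411 overlapped UBAP2L, miR-2332 UTP6, a factor of ribosome assembly, and miR-2339 ELAC2, which trims the 3′ ends of tRNA precursors. The gene overlapping miR-2399 was RBPMS, which encodes an RNA-binding protein. miR-2443 overlapped the protein-coding gene LOC101903200 and stood between the let-7a-3 and let-7b genes. The genes of miR-2300a and miR-2300b overlapped each other and FLT1, a receptor of vascular endothelial growth factors. miR-2300a-5p and miR-2300b-3p had the same count in every library, 12 counts each in all, and cannot be taken as separate measurements.

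In 22 hairpins both arms were listed, and in 17 of them the arms had at least 20 counts together. The 5p arm was the larger in 11 of the 17 and the 3p arm in 6. At least 90% of the counts came from the 5p arm in 4 (miR-2419, miR-2299, miR-2399 and miR-2425) and from the 3p arm in 2 (miR-2415 and miR-2466). miR-2419 was the most one-sided of the abundant hairpins, with 99.3% of its counts in miR-2419-5p. miR-2483 had 84.6% of its 305 counts in the 5p arm, and miR-2483-3p had at most 7 counts in a library.

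**Figure D2:**
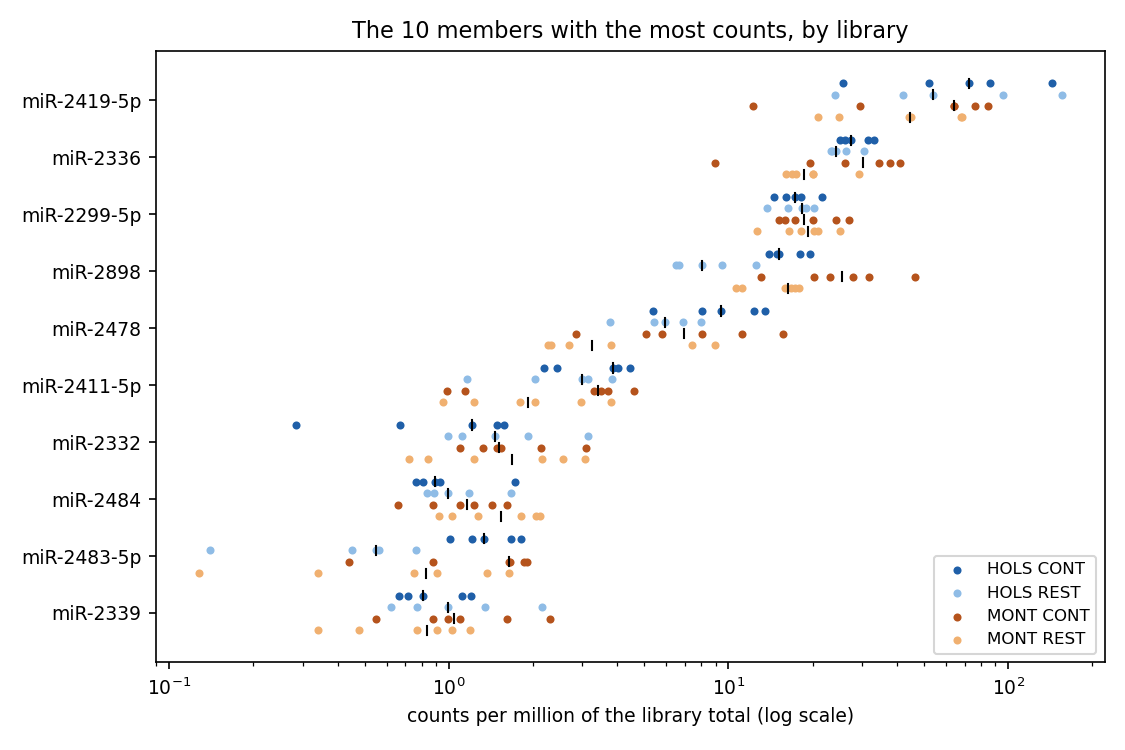
Counts per 1000000 counts of the library (horizontal axis, log scale) are shown for the 10 cattle-numbered miRNAs with the most counts, with a point for each library and a black tick for the median of each group of 5 (HOLS) or 6 (MONT) libraries. The HOLS REST points of miR-2898 lie to the left of all HOLS CONT points, and miR-2419-5p spreads widely within each group.

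The study asked whether feed restriction changed the miRNAs of the mammary gland, and HOLS cows are taken first. Among the cattle-numbered set, miR-2898 and miR-2483-5p had the lowest fold changes, and no member passed the threshold in the main test. In HOLS 14 of the 138 members passed the filter on low counts, and these 14 held 91.8% of the set's counts in that breed. edgeR's quasi-likelihood test called 0 of the 14 at an adjusted p of at most 0.05, against 2.41% of all 374 miRNAs tested. An unadjusted p under 0.05 was reached by 4 of the 14, against 23.3% of all. With the cow as a block, edgeR called 2 of the 14, both lower in REST, against 16.3% of all. DESeq2 without the block called 2 of 122, against 3.45% of all. Its totals, here and below, include miRNAs left without an adjusted p by its own low-count filter, which could not be called. Most members had few counts, so its rates for members and for all miRNAs are not strictly comparable. By both methods the 2 called were miR-2898 and miR-2483-5p. The study had already picked both on these HOLS libraries. Neither their HOLS values nor any HOLS p-value given for them is therefore independent evidence of a change or its direction.

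miR-2898 in HOLS CONT had normalized counts of 220, 164, 184, 240 and 188 in cows 1155, 1165, 2182, 8200 and 9195. In HOLS REST the same cows had 93.7, 94.7, 100, 163 and 138. The periods did not overlap, and the level was lower in 5 of 5 cows. The mean went from 199 ± 30.4 (SD, n = 5) to 118 ± 31.1 (SD, n = 5), a ratio of 0.591. The log2 fold change was -0.75 (SE 0.19), with an adjusted p of 0.0540 from edgeR, 0.00555 with the block and 0.00732 from DESeq2. With the libraries taken as unpaired, normalized counts gave a two-sided exact permutation p = 0.00794, or 0.0159 adjusted over 4 tests (miR-2898 and miR-2483-5p in each breed).

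miR-2483-5p was an order of magnitude lower than miR-2898. In HOLS CONT its normalized counts were 15.0, 19.5, 14.7, 24.2 and 12.7 in the same order of cows. In HOLS REST they were 7.94, 6.57, 9.48, 7.15 and 2.02. Again no REST library reached any CONT library. The mean ratio was 0.385, and the log2 fold change was -1.31 (SE 0.34) with an adjusted p of 0.0540 from edgeR, 0.0168 with the block and 0.0301 from DESeq2. The two-sided exact permutation test gave p = 0.00794, or 0.0159 adjusted. For either miRNA the paired exact test gave 0.063, the smallest value that 5 cows allow. Raw counts of miR-2483-5p were between 2 and 19 per HOLS library, and its mean of 11.7 counts over all libraries carries a counting error near 29.2%.

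The marker lists moved in HOLS as well. The epithelial markers were lower in REST in 4 of 5 cows, with medians of 4.33% in CONT and 3.75% in REST and ranges of 3.62 to 4.78% and 2.44 to 4.87%. The smooth muscle and stroma markers were higher in 5 of 5 cows, with medians of 19.0% and 23.3% and ranges of 16.0 to 21.4% and 18.8 to 25.3%. No marker of either list was at 0 in any library. The paper names miR-143, of the smooth muscle and stroma list, as its most abundant miRNA. On these HOLS libraries the study had called miR-143 higher and miR-200b and miR-200c lower in REST. The shares of the lists are therefore not independent of those calls. The part of the lists in the levels of miR-2898 and miR-2483-5p was not tested.

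**Figure D3:**
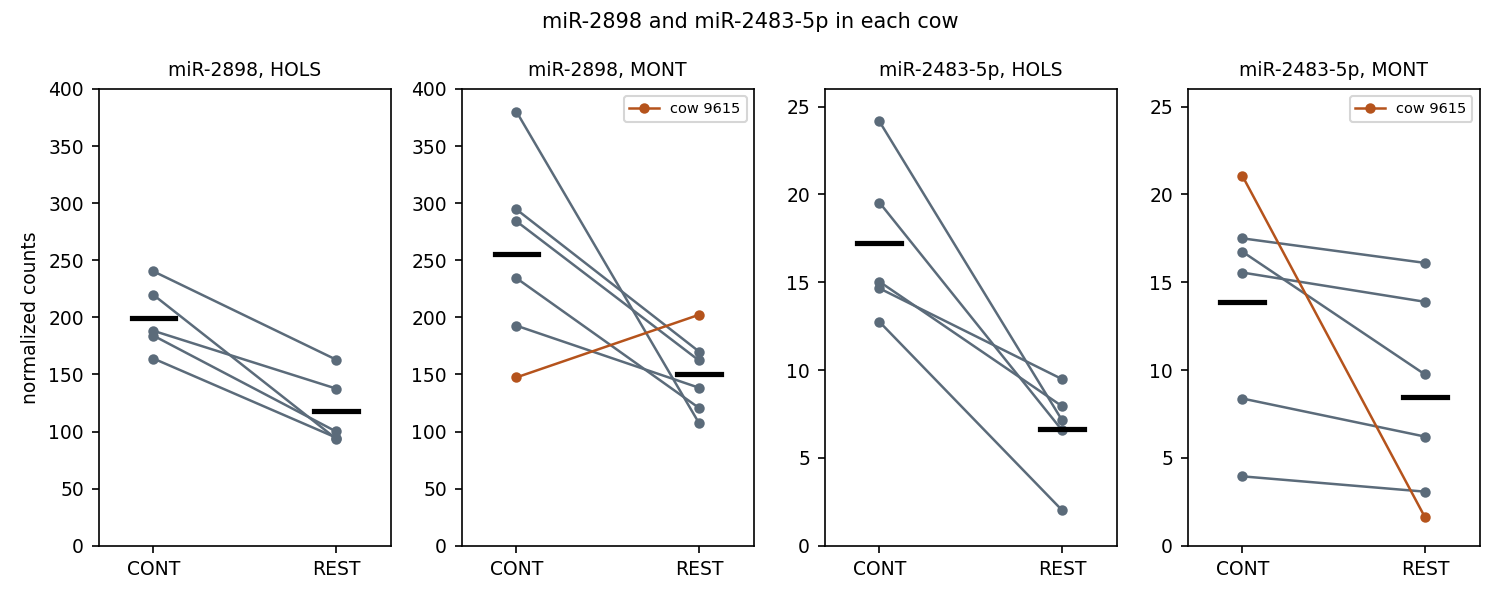
Normalized counts (vertical axis) of miR-2898 (left pair of panels) and miR-2483-5p (right pair) are shown in each cow, with a line from its CONT to its REST library, for 5 HOLS and 6 MONT cows. Black bars are group means, and cow 9615, in orange, is the only one in which miR-2898 was higher in REST.

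The other HOLS members split in both directions. miR-2478 had normalized counts of 63.0 to 165 (median 114) in CONT and of 54.6 to 99.1 (median 86.8) in REST, and it was lower in 4 of 5 cows. Its log2 fold change was -0.54 (SE 0.25) with an edgeR adjusted p of 0.209. miR-2399-5p had a log2 fold change of 0.99 (SE 0.36) and an edgeR adjusted p of 0.169, and it was higher in REST in 4 of 5 cows. miR-2332 was also higher in 4 of 5 cows, with a log2 fold change of 0.85 (SE 0.43) and an edgeR adjusted p of 0.248. Its normalized counts were 3.81 to 18.7 in CONT and 12.9 to 46.0 in REST. With the cow as a block and the filter kept, the edgeR adjusted p was 0.0837 for miR-2478, 0.0661 for miR-2399-5p and 0.0602 for miR-2332. When the filter was dropped and the block kept, a setting chosen after seeing the data, edgeR called 5 of 122 members against 12.5% of all miRNAs. miR-2898, miR-2483-5p and miR-2478 were lower and miR-2332 and miR-2399-5p higher.

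The most abundant members differed little between the periods in HOLS. miR-2336 had a mean of 349 ± 40.2 before and 349 ± 34.0 after restriction (SD, n = 5), and its log2 fold change was 0.01 (SE 0.13). miR-2299-5p had a log2 fold change of 0.17 (SE 0.15) and miR-2419-5p one of 0.11 (SE 0.47). Over the 14 tested, 9 had a fold change above 0 and the median log2 fold change was 0.09, beside 0.02 over all 374. That median was -0.07 without cow 1155, -0.01 without cow 2182 and -0.03 without cow 9195, so it had no stable sign.

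**Figure D4:**
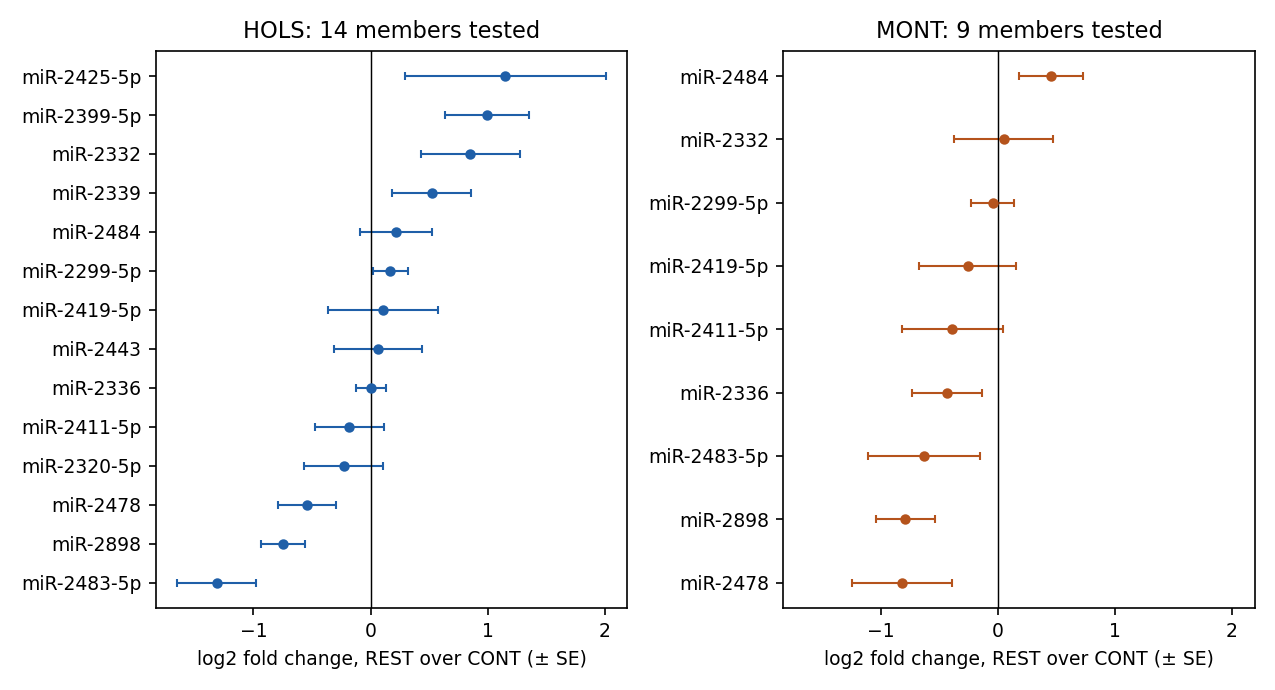
Log2 fold changes of REST over CONT (horizontal axis, bars ± SE from edgeR) are shown for the 14 cattle-numbered miRNAs tested in HOLS and the 9 tested in MONT. miR-2898, miR-2483-5p and miR-2478 are the lowest in both breeds, and of the 9 tested in both, 5 are above 0 in HOLS and 2 in MONT.

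MONT cows offered a set of libraries that the study had not used to pick these miRNAs. miR-2898 was lower in REST in 5 of 6 MONT cows, and no member, miR-2898 included, passed the threshold in the main test. Of the 138 members, 9 passed the filter, holding 87.6% of the set's counts, and all 9 had also been tested in HOLS. edgeR called 0 of the 9 and DESeq2 0 of 123, where both called 0% of all miRNAs. The paper proposes lower quality of the MONT libraries as a possible reason for its own lack of MONT calls, which was not tested here. By edgeR 1 of the 9 had an unadjusted p under 0.05, against 13.5% of all.

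miR-2898 in MONT CONT had normalized counts of 295, 284, 193, 380, 234 and 147 in cows 1613, 1640, 1652, 2614, 5663 and 9615. In MONT REST they were 170, 162, 138, 107, 121 and 202. The ranges overlapped, and cow 9615 was the only one in which the level was higher in REST. The mean went from 256 ± 82.4 to 150 ± 34.9 (SD, n = 6), a ratio of 0.587 beside 0.591 in HOLS. The log2 fold change was -0.79 (SE 0.25), with an unadjusted p of 0.00773 and an adjusted p of 0.300 by edgeR, and an adjusted p of 0.292 with the cow as a block. The exact permutation test of the normalized counts gave p = 0.0173, or 0.0231 adjusted over the 4 tests, and the paired exact test p = 0.063. The 4 tests include those of HOLS libraries on which the study picked both miRNAs, so 0.0231 is not an adjustment within MONT alone. Without cow 9615 the log2 fold change was -1.01 with an edgeR adjusted p of 0.0149, and without cow 2614 it was -0.50 with an edgeR adjusted p of 0.869. In the fit without cow 9615, 1 of 11 members was called, against 12.8% of all 358 miRNAs tested.

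The epithelial markers of cow 9615 went against those of the other MONT cows. Its epithelial markers went from 1.59 to 2.66% of the counts, while they were lower in REST in the other 5 MONT cows. Its smooth muscle and stroma markers went from 33.9 to 29.6%, and they were lower in REST in 3 of the 6 MONT cows. In cow 2614, in which miR-2898 had its largest difference, these went from 23.3 to 42.8% and the epithelial markers from 3.48 to 1.27%. The MONT epithelial medians were 2.75% in CONT and 2.39% in REST. The part of these markers in the miR-2898 levels was not tested.

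miR-2483-5p in MONT was low and uneven. Its normalized counts were 17.5, 3.95, 8.38, 15.5, 16.7 and 21.1 in CONT and 16.1, 3.07, 6.21, 13.9, 9.75 and 1.62 in REST, cows in the order above. They were lower in REST in 6 of 6 cows, but by little in most. The raw counts behind them were 12 and 16 in cow 1613, 4 and 4 in cow 1640, and 17 and 1 in cow 9615. The log2 fold change was -0.63 (SE 0.48) with an edgeR adjusted p of 0.485, and -0.33 with an adjusted p of 0.662 without cow 9615. The exact permutation test of unpaired normalized counts gave p = 0.145. The paired exact test of log2 changes gave an unadjusted p = 0.031, the smallest possible with 6 cows.

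miR-2478 was lower in REST in 5 of 6 MONT cows, from 32.2 to 140 normalized counts in CONT (median 60.7) to 23.5 to 80.7 in REST (median 32.8). Its log2 fold change was -0.82 (SE 0.42) with an edgeR adjusted p of 0.405. miR-2336 was lower in 5 of 6, with a log2 fold change of -0.43 (SE 0.30) and an edgeR adjusted p of 0.448, which became -0.62 and 0.0918 without cow 9615 and -0.28 and 0.736 without cow 5663. miR-2484 had a log2 fold change of 0.45 (SE 0.27) and an edgeR adjusted p of 0.437. Over the 9 tested, 2 had a fold change above 0 and the median log2 fold change was -0.39, beside -0.01 over all 349. The median was -0.18 without cow 1613, -0.19 without cow 2614 and -0.24 without cow 5663.

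As a share of the library, the members other than miR-2419-5p and miR-2336 held less in REST in 5 of 5 HOLS and 6 of 6 MONT cows. For all 138 members the share was lower in 4 of 5 and 5 of 6. Sums of normalized counts were lower in the same numbers of cows. Without miR-2419-5p and miR-2336, the mean share was 0.00681 ± 0.000823% in HOLS before and 0.00553 ± 0.000781% after restriction (SD, n = 5). In MONT it was 0.00814 ± 0.00198% and 0.00609 ± 0.00102% (SD, n = 6). Without miR-2898 as well, the share was lower in 4 of 5 and 5 of 6 cows. The share of the miR-2284 and miR-2285 miRNAs was lower in 5 of 5 HOLS and 4 of 6 MONT cows, so a lower share in REST was not seen in the described set alone.

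Whether HOLS and MONT cows responded differently was asked of all 22 libraries through a breed by period interaction. The main fit had no cow term, so it left out the pairing of each cow's libraries. edgeR tested 17 members and called 0, where it called 0% of all 388 miRNAs, and 0 of the 17 had an unadjusted p under 0.05, against 0.773% of all. DESeq2 called 0 of 138 members and 0% of all. The difference between the breeds in the log2 fold change of miR-2898, HOLS minus MONT, was -0.03 (SE 0.32). For miR-2483-5p it was -0.75 (SE 0.65) and for miR-2339, the member with the lowest p, 1.08 (SE 0.54). All 3 had an edgeR adjusted p of 0.991. With the cow as a block edgeR also called 0 of the 17. The differences were then -0.08 for miR-2898, -0.78 for miR-2483-5p and 1.02 for miR-2339. Without cow 9615 the count of members called was also 0, and the difference was 0.20 for miR-2898 and -1.07 for miR-2483-5p. miR-2339 was higher in REST in 4 of 5 HOLS cows and in 2 of 6 MONT cows. The interactions of miR-2332 (0.79, SE 0.64), miR-2474 (0.92, SE 0.75) and miR-2336 (0.37, SE 0.34) had the same adjusted p.

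The breeds were also compared within each period, with levels given as CPM, counts per 1000000 counts of the library. The paper describes the MONT libraries as lower in quality than the HOLS libraries, so breed and library quality cannot be told apart here. miR-2898 had the lowest p of the members in both periods and was lower in HOLS, and neither difference passed the threshold in edgeR. Before restriction edgeR called 0 of 11 members, against 0.556% of all 360 miRNAs. An unadjusted p under 0.05 was reached by 1 of the 11, against 20.3% of all. After restriction it called 0 of 13, against 15.3% of all 378, with 2 of the 13 under an unadjusted 0.05 against 33.1% of all. The comparisons share their cows but not their libraries.

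miR-2898 had a mean of 16.3 ± 2.34 CPM in HOLS CONT (n = 5) and 27.0 ± 11.5 in MONT CONT (n = 6). After restriction the means were 8.65 ± 2.51 and 15.0 ± 3.21 (SD). The log2 fold change of HOLS over MONT was -0.70 (SE 0.24) before, with an edgeR adjusted p of 0.152, and -0.67 (SE 0.22) after, with an edgeR adjusted p of 0.0504. DESeq2 gave 0.0262 after restriction. In edgeR the adjusted p after restriction was 0.0477 without cow 1652, 0.0309 without cow 2614, 0.0441 without cow 5663 and 0.0339 without cow 8200, and up to 0.124 without any of the others. miR-2336 was at 25.5 ± 3.02 CPM in HOLS REST and 19.9 ± 4.85 in MONT REST (SD), a log2 fold change of 0.48 (SE 0.17) with an edgeR adjusted p of 0.0696 and a DESeq2 adjusted p of 0.0436. Without cow 1640 edgeR gave 0.58 with an adjusted p of 0.0261. Before restriction its log2 fold change was 0.05 (SE 0.29). miR-2483-5p had a log2 fold change of 0.00 (SE 0.45) before and of -0.70 (SE 0.50) after. Smooth muscle and stroma markers had medians of 19.0% in HOLS CONT and 27.5% in MONT CONT, and 23.3% and 30.7% in REST. Epithelial markers had medians of 4.33% and 2.75% in CONT, and 3.75% and 2.39% in REST. Their part in the breed differences was not tested.

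DESeq2 called 1 of 119 members before restriction, against 2.66% of all miRNAs, and 3 of 126 after it, against 10.9% of all. The one before, which was also among the 3 after, was miR-2419-3p, with log2 fold changes of 4.11 (SE 1.29) and 4.23 (SE 1.23) and adjusted p of 0.0423 and 0.00634. edgeR without a filter called it after restriction (1 of 126 members, against 7.23% of all) and gave it an adjusted p of 0.206 before. Its counts rested on 2 HOLS cows. They were 20 and 21 in the CONT and REST libraries of cow 2182 and 21 and 40 in those of cow 8200, 102 of its 117 counts. In the 18 libraries of the other 9 cows, HOLS and MONT alike, it had 0 to 3 counts and was at 0 in 8.

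miR-2419-5p and miR-2425-5p varied more from cow to cow than between the periods. The test of the cow within a breed was added after the values were seen. edgeR called the cow term for 2 of 14 members in HOLS, against 12.8% of all miRNAs, and for 0 of 9 in MONT, against 0.573% of all. miR-2419-5p had the lowest p of the set in both breeds, with adjusted p of 1.4e-05 in HOLS and 0.115 in MONT by that test. Its normalized counts in HOLS CONT were 584, 850, 1742, 1151 and 323 in cows 1155, 1165, 2182, 8200 and 9195, and 593, 789, 1926, 1239.5 and 348 in REST. The order of the cows was the same before and after restriction, and the mean of cow 2182 was 5.46 times that of cow 9195. In MONT the mean of cow 1613 was 3.90 times that of cow 9615.

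The cows with the highest miR-2419-5p in HOLS, 2182 and 8200, were also those with miR-2419-3p. The 3p arm was a larger share of the hairpin there. It made up 1.69% of the hairpin's counts in the 4 libraries of these cows (95% exact binomial interval 1.38 to 2.04%) and 0.155% in the other 18 libraries (0.0868 to 0.256%). The cows were singled out after their counts were seen, and such intervals cover counting error only. By library the share was 1.84% and 0.931% in cow 2182 and 2.27% and 2.26% in cow 8200, CONT and REST in turn. It was at most 0.509% in any other library.

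miR-2425-5p, from a hairpin that overlapped NCKAP5L, was either present or near 0 by cow. Its counts in CONT and REST were 8 and 22 in HOLS cow 1155, 7 and 20 in 2182, and 9 and 24 in 8200. In MONT they were 9 and 17 in cow 1613, 4 and 16 in 1640, and 9 and 16 in 1652. In HOLS cows 1165 and 9195 and MONT cows 2614, 5663 and 9615 every library had 0 to 2 counts. Both breeds were split in this way, and the deepest library, REST of cow 2614, was among those near 0. The edgeR adjusted p of the cow term in HOLS was 0.00662. The fold change between the periods in HOLS, on the log2 scale, was 1.15 (SE 0.86) with an edgeR adjusted p of 0.457. With the cow as a block it was 0.97 with an edgeR adjusted p of 0.0976. miR-2425-5p was chosen for description after its values were seen.

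**Figure D5:**
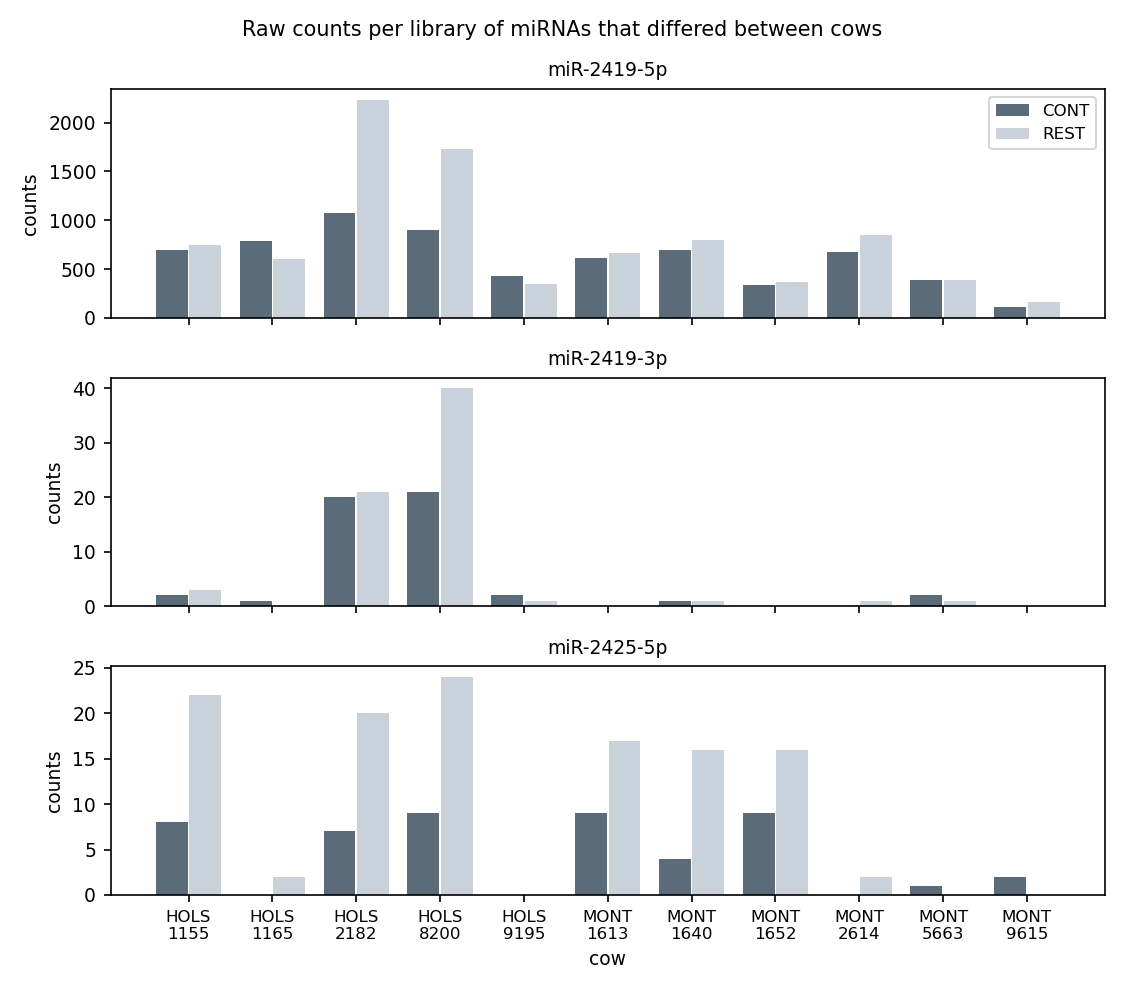
Raw counts (vertical axes, each starting at 0) of miR-2419-5p, miR-2419-3p and miR-2425-5p are drawn for each cow, with dark bars for CONT and light bars for REST. miR-2419-3p stands out in HOLS cows 2182 and 8200, and miR-2425-5p is at 0 to 2 counts in 5 cows and at 4 to 24 in the other 6.

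miR-2415-3p, also chosen after its values were seen, was uneven by cow as well. It had 0 counts in both libraries of HOLS cow 2182, 13 and 35 in MONT cow 1640, and 17 and 15 in MONT cow 1652. It comes from a hairpin that overlaps a long noncoding RNA gene beside ST3GAL3, a sialyltransferase gene.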

How the data were processed

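The members, lists and tests were chosen with earlier results of these data known. Small RNA was sequenced from 22 mammary biopsies. The authors trimmed adapters, selected reads by size, counted and annotated them with ncPRO-seq and miRDeep2 against the bovine genome and miRBase, and deposited whole-number counts per miRNA without normalization. How reads shared by near-identical miRNAs were split is not given in the sources used here. The authors' normalized counts, group means, fold changes and p-values in the same tables were not used. The submitters' processing notes name DESeq2 1.18.1 and bcl2fastq 2.17.1.14. Mature sequences were not used here.

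Groups came from the labels. Normalized counts are counts divided by DESeq2 size factors estimated within each breed. Tests were edgeR 4.0.16 (R 4.3.3) quasi-likelihood F tests of the counts, with TMM, filterByExpr (minimum count 10) and Benjamini-Hochberg adjustment over all miRNAs tested, at 0.05, and no cow term, as the paper's methods name none. By the labels, a number marks a cow sampled in both periods, and the correlations of their deviations are given in the report. The cow as a block is therefore given where it changes a call and for some members where it does not. Changes per cow are differences of log2(normalized count + 1). Named miRNAs were miR-2483-5p, miR-2898, the 10 most abundant members per breed, the 5 with the lowest p in each comparison, any called, and the other arm of each, 19 in all. Alternatives were DESeq2 1.42.0, its size factors in edgeR, no filter, the cow block and each cow left out, and the cow term and the block without a filter were added after seeing the data. The edgeR test was tried on simulated counts with a fixed dispersion, no cow effect and changes larger than any estimated for a member in the main tests. That trial does not show which smaller changes the test would miss here. Library totals ranged from 6087865 to 18913916 counts, and intervals cover counting error only.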

Additional observations from a re-analysis of the deposited data

Results flagged for a closer look

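Among 64 groups of libraries (16 of the named miRNAs in each of the 4 groups), 2 held a library far from the rest. Far means a large gap to the nearest other library beside the range of the group. About 1 in 20 groups, or 3.2, was taken as the chance rate, which need not hold for low counts. miR-2484 in the CONT library of HOLS cow 9195 was at 21.7 normalized counts, against 9.77 to 10.9 in the other 4 HOLS CONT libraries. miR-2419-3p in the CONT library of MONT cow 5663 was at 3.35 normalized counts, from 2 raw counts, against 0 to 0.987 in the other 5 MONT CONT libraries.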

How the results depend on the processing

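Of 29 fold changes examined under 355 combinations of miRNA, comparison and alternative setting, 27 kept their direction in every one. They were the 5 members with the lowest p in each comparison, miR-2898 and miR-2483-5p where tested, and miR-2425-5p between the HOLS periods. Settings whose filter dropped the miRNA were left out, and the settings share most libraries, so the 27 do not describe the set as a whole. The exceptions were 2 fold changes near 0. The interaction of miR-2898 was 0.0187 with DESeq2 and 0.0140 with its size factors in edgeR, and -0.22 to 0.20 with a cow left out. miR-2483-5p between the breeds before restriction was 0.00582 with DESeq2, 0.00586 with its size factors and 0.0314 with no filter, and -0.21 to 0.16 with a cow left out. The cause was not tested. In HOLS the number of members called between the periods was 0 in the main test, 2 with DESeq2, 2 with the cow as a block and 5 with the block and no filter, and 0 with each cow left out. The block changed no call in MONT or in the interaction, with 0 members called in each. In MONT the count was 0 to 1 with a cow left out, and without cow 9615 miR-2898 was called. Between the breeds it was 1 with DESeq2 before restriction, and after it 3 with DESeq2, 1 with no filter and 0 to 1 with a cow left out, the 1 being miR-2336 without cow 1640 and miR-2898 without cow 1652, 2614, 5663 or 8200. With each cow left out, the HOLS log2 fold change of miR-2898 was -0.87 to -0.66 (edgeR adjusted p 0.0556 to 0.254) and that of miR-2483-5p -1.53 to -1.20 (0.0513 to 0.186). The filter left 124 members in HOLS and 129 in MONT untested, and without it 122 and 123 members were tested.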
